A study of Mus musculus with 16 samples.

Results

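The 10 genes described here code for macrophage scavenger receptors (Cd36, Msr1, Mrc1 and Marco), Fc-gamma receptors (Fcgr1, Fcgr2b, Fcgr3 and Fcgr4) and a pair of other macrophage membrane proteins (Mpeg1 and Adgre1). They were chosen by name, with earlier results of these data known. Shares and medians of the members set beside those of all genes are therefore descriptions and not tests. All 10 were measured, each by 1 array feature that maps to a single gene symbol, among 22180 genes with such a feature, and all 10 were among the 15526 genes left after the dimmest genes were removed.

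The cells were bone marrow-derived macrophages from male C57BL/6 mice aged 5 weeks, grown with macrophage colony-stimulating factor (M-CSF). RANKL, a cytokine that turns such cells into bone-resorbing osteoclasts, was given with 1 mM of the cell-permeant dimethyl ester of α-ketoglutarate (αKG), a metabolite of the tricarboxylic acid cycle, or with DW, the control treatment by its label. Arrays with αKG cover 0.5, 1, 3, 6, 12, 24, 48 and 72 h of RANKL, those with DW cover 3, 6, 12, 24, 48 and 72 h, and a pair of arrays taken before RANKL (0 h) held cells in M-CSF and DW. The labels join neighbouring times into phases of 2 arrays each. The fast phase (0.5 and 1 h) exists for αKG alone, and both arms have an early phase (3 and 6 h), an intermediate phase (12 and 24 h) and a late phase (48 and 72 h). After 0 h each condition and time has 1 array, and separate cultures or mice are not stated for any of the 16. The p-values therefore reflect only how far these arrays scatter. In comparisons with 0 h that scatter includes change with time inside a phase. Comparisons between the arms pair arrays of the same time, so change with time that both arms share is taken out. Their p-values reflect how far the difference between the arms varies from time to time.

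Scavenger receptors bind modified lipoproteins, apoptotic cells and microbial surfaces, and Fc-gamma receptors bind the constant part of immunoglobulin G on opsonised particles. Activating Fc-gamma receptors signal through the ITAM-bearing common gamma chain, a pathway that osteoclast precursors also use for costimulation, whereas Fcgr2b carries an inhibitory motif. Macrophages and osteoclasts arise from a shared myeloid precursor, and phagocytic receptors are among the proteins used to tell them apart.

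The arrays carried the labelled lineage. Adgre1, an adhesion G protein-coupled receptor long used as a macrophage marker, lay between 10.29 and 11.45 log2 on all 16 arrays, and a list of 12 other macrophage markers had array means of 9.08 to 9.46 log2 in late αKG cultures, 8.83 to 9.26 in late DW cultures and 9.54 to 9.57 at 0 h. A list of 10 osteoclast markers had array means of 7.69 to 9.19 in late αKG cultures, 9.45 to 11.12 in late DW cultures and 5.13 to 5.20 at 0 h. A list of 10 neutrophil markers had array means of 5.09 to 5.73 in late αKG cultures, 5.04 to 5.43 in late DW cultures and 7.51 to 7.52 at 0 h. The corresponding means for B cell, T and NK cell, dendritic cell, mast cell and basophil, stromal and erythroid markers stayed between 3.72 and 5.09 on all arrays. RNA was measured in bulk, so fewer cells of a type and less RNA per cell cannot be told apart.

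**Figure D1:**
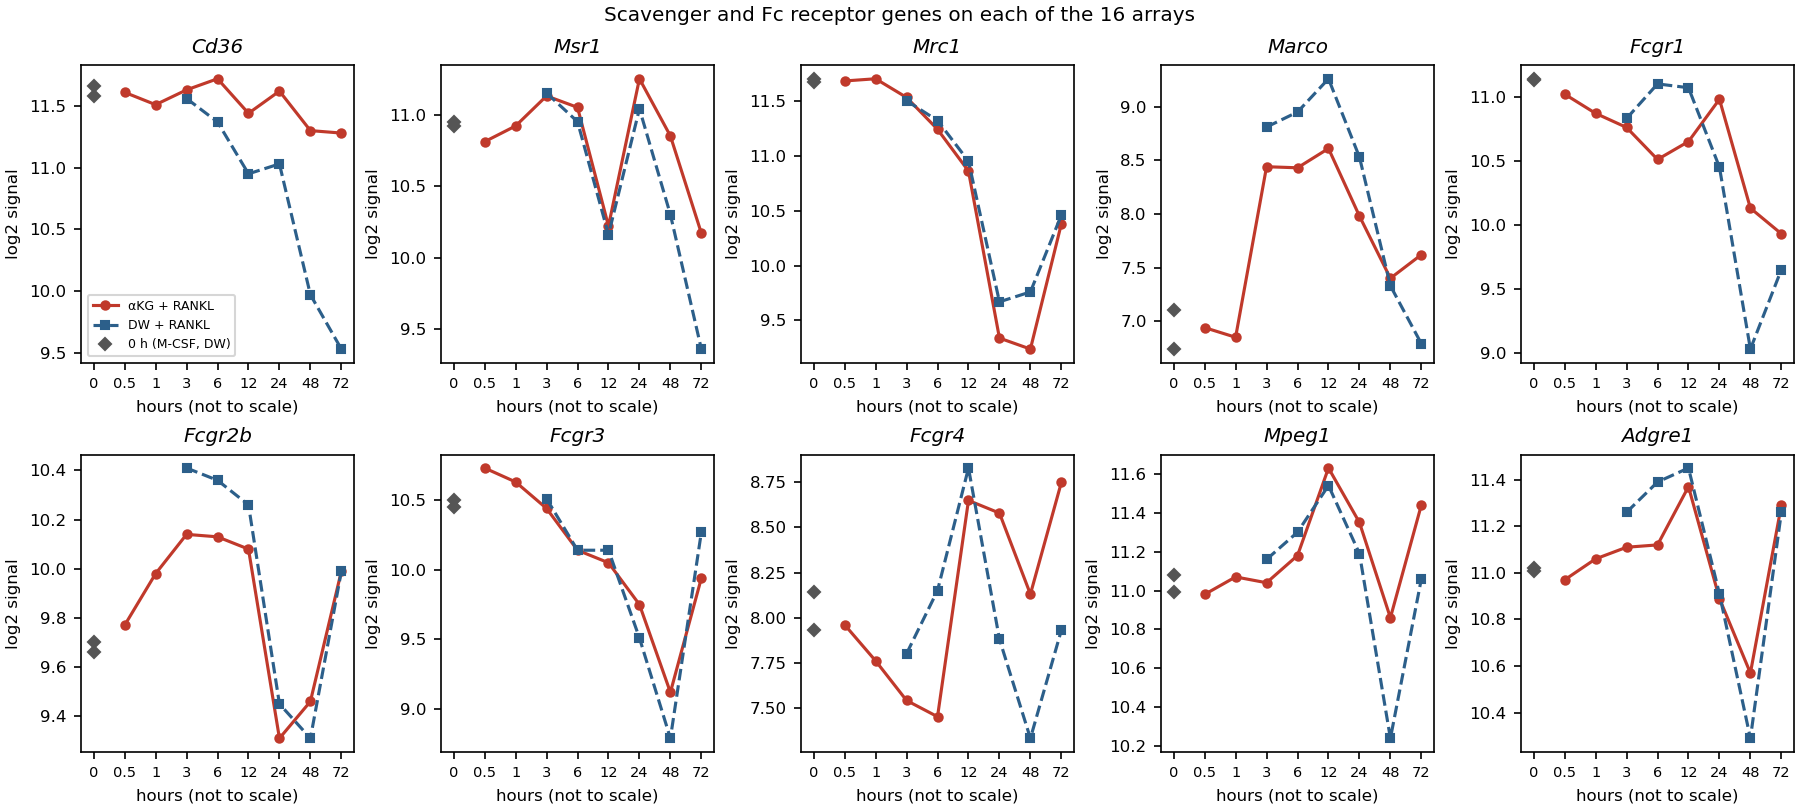
Log2 level of each of the 10 genes (vertical axis, 1 panel per gene with its own scale) against hours of RANKL (horizontal axis, not to scale), with solid red lines for αKG, dashed blue lines for DW and grey diamonds for the 2 arrays at 0 h. Each point is 1 array. Cd36 ended at 11.28 in the αKG culture and at 9.53 in the DW culture at 72 h, whereas the Mrc1 lines ended at 10.38 with αKG and 10.46 with DW.

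Cd36, the class B scavenger receptor for oxidised lipoproteins and long-chain fatty acids, was the member with the clearest difference between the arms. With αKG it read 11.61, 11.51, 11.63, 11.72, 11.44, 11.62, 11.30 and 11.28 log2 at 0.5, 1, 3, 6, 12, 24, 48 and 72 h. With DW it read 11.56, 11.37, 10.95, 11.03, 9.97 and 9.53 at 3, 6, 12, 24, 48 and 72 h, and the 0 h arrays read 11.66 and 11.58. The lowest αKG array thus lay above the DW arrays of 12 h and later, and both late DW arrays lay below every other array.

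Late Cd36 was 1.54 ± 0.10 log2 higher with αKG than with DW, a 2.9-fold difference (limma, adjusted p = 0.000474), and this was the third smallest p among the genes tested. ± gives the standard error of a fitted difference on the log2 scale throughout. Late DW cultures differed from 0 h by -1.87 ± 0.13 log2 and were 3.65-fold lower (limma, adjusted p = 4.24e-05). Late αKG cultures differed from 0 h by -0.33 log2, which did not pass the threshold of 0.05. Comparisons with 0 h share the same pair of 0 h arrays, and the comparison between the arms uses the same late arrays again, so these are not separate lines of evidence.

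The αKG minus DW difference of Cd36 was 0.07, 0.35, 0.50, 0.59, 1.33 and 1.74 log2 at 3, 6, 12, 24, 48 and 72 h. It was above 0 at all 6 times, and 8.34% of all genes tested kept the same sign at all 6. The 95th percentile of the absolute difference over all genes tested was 0.56 at 48 h and 0.84 at 72 h. Cd36 lay at percentile 99.7 at 48 h and 99.5 at 72 h. Averaged over the 6 times the difference was 0.76, with an adjusted p of 0.137 (limma), and the exact two-sided sign-flip test gave p = 0.03125, the smallest that 6 pairs allow, and 0.375 after adjustment.

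The difference between the arms was itself larger in the late than in the early phase, by 1.33 ± 0.15 log2 (limma, adjusted p = 0.0156). That call was lost when the 3 h or the 6 h pair was left out (adjusted p up to 0.218), without the intensity trend and without time as a block. In the order of group means, the neighbouring steps among early αKG, 0 h, fast αKG, intermediate αKG and early DW (11.67 to 11.46) lay within the larger SD of each neighbouring pair (n = 2). The steps to late αKG (11.29 ± 0.02, SD), intermediate DW (10.99 ± 0.06) and late DW (9.75 ± 0.31) exceeded it.

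**Figure D2:**
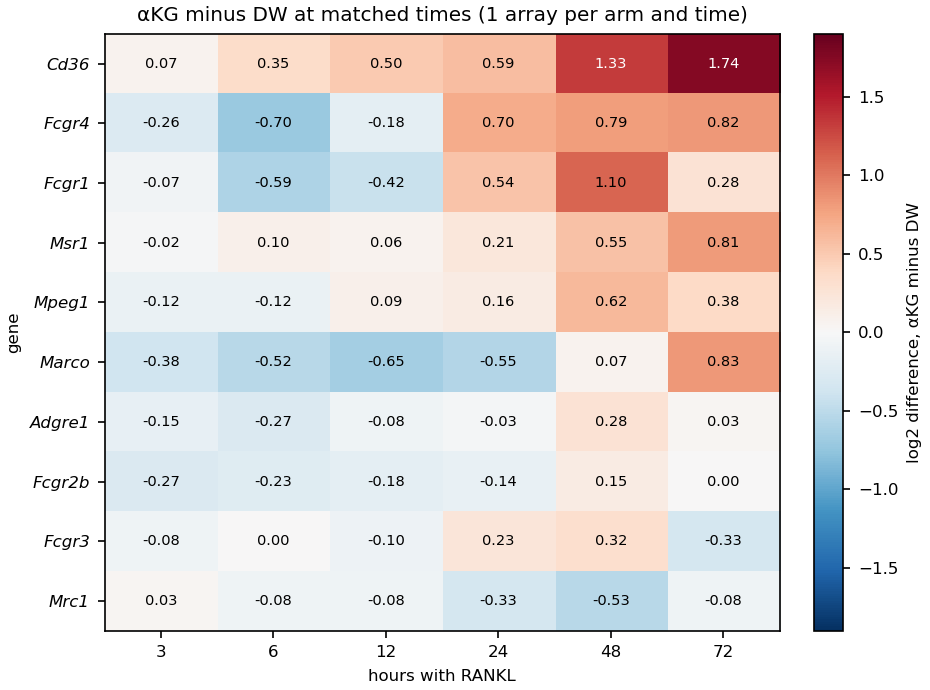
Heat map of the difference in log2 level, αKG minus DW, for the 10 genes (down the side) at each of the 6 times both arms hold (along the bottom, hours with RANKL), with 1 array per arm and time, red above 0, blue below 0 and the value printed in each cell. Cd36 reached 1.74 at 72 h, Msr1 stood at 0.81, Fcgr4 at 0.82 and Marco at 0.83 there, and Mrc1 was below 0 at 5 of the 6 times.

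Msr1, scavenger receptor A, which takes up acetylated lipoproteins, also ended higher with αKG. With αKG it read 10.81, 10.92, 11.13, 11.05, 10.22, 11.25, 10.85 and 10.17 log2 at 0.5, 1, 3, 6, 12, 24, 48 and 72 h. DW arrays gave 11.15, 10.95, 10.16, 11.04, 10.30 and 9.36 at 3, 6, 12, 24, 48 and 72 h, and the 0 h arrays read 10.95 and 10.92. Both arms dipped at 12 h and stood above both 0 h arrays again at 24 h, and the ranges of the arms overlapped within the late phase.

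Paired by time, late Msr1 was 0.68 ± 0.09 log2 or 1.6-fold higher with αKG than with DW (limma, adjusted p = 0.00522). The call was lost without time as a block (adjusted p = 0.745). Late DW cultures were -1.11 log2 from 0 h, with an adjusted p of 0.121, which did not pass. The late difference exceeded the early one by 0.64 log2 (limma, adjusted p = 0.0556).

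Mrc1, the mannose receptor CD206, took a different course. With αKG it read 11.68, 11.70, 11.53, 11.24, 10.86, 9.34, 9.24 and 10.38 log2 at 0.5, 1, 3, 6, 12, 24, 48 and 72 h. With DW it stood at 11.50, 11.32, 10.95, 9.67, 9.76 and 10.46 at 3, 6, 12, 24, 48 and 72 h, and the 0 h arrays read 11.67 and 11.70. Both arms were low at 24 and 48 h and stood higher again at 72 h.

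Late Mrc1 was -1.87 log2 from 0 h with αKG (limma, adjusted p = 0.132) and -1.57 with DW (limma, adjusted p = 0.103), and neither passed. The late αKG minus DW difference was -0.30 log2 (limma, adjusted p = 0.178), so the sign was opposite to that of Cd36 and Msr1 but the difference was not past the threshold. At 48 h alone the difference was -0.53, and at 72 h alone -0.08. Mrc1 group means fell into 3 tiers, with fast αKG and 0 h at 11.69 and 11.68, early DW and early αKG at 11.41 and 11.38, and the 4 later groups between 10.31 and 9.81. Steps within a tier lay within the larger SD of the neighbours.

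Marco, a collagen-domain scavenger receptor for bacteria and particles, was the member that rose soon after RANKL. With αKG it read 6.94, 6.85, 8.44, 8.43, 8.61, 7.98, 7.40 and 7.62 log2 at 0.5, 1, 3, 6, 12, 24, 48 and 72 h. In the DW arm it read 8.81, 8.95, 9.26, 8.53, 7.33 and 6.79 at 3, 6, 12, 24, 48 and 72 h, and the 0 h arrays read 6.74 and 7.10. The 2 earliest αKG arrays lay within the 0 h range, the arrays from 3 to 24 h lay well above it in both arms, and the 72 h DW array was back within it.

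Early Marco was 1.52 ± 0.27 log2 above 0 h with αKG (2.86-fold, limma, adjusted p = 0.0391) and 1.96 ± 0.27 with DW (3.9-fold, limma, adjusted p = 0.0157). Intermediate DW cultures were 1.98 ± 0.27 above 0 h (3.94-fold, limma, adjusted p = 0.00894), and intermediate αKG cultures 1.37 above, just outside the threshold (limma, adjusted p = 0.0522). The 0 h arrays differed by 0.37 log2 for Marco, more than for the other 9 genes. Both early calls were lost when any 1 of the 4 arrays was left out, with adjusted p between 0.197 and 0.382 for αKG and between 0.113 and 0.188 for DW, and the intermediate DW call was lost without either 0 h array or in a fit of the 2 groups alone.

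The αKG minus DW difference of Marco was -0.38, -0.52, -0.65 and -0.55 log2 at 3, 6, 12 and 24 h, then 0.07 at 48 h and 0.83 at 72 h. No phase passed the test. The late minus early contrast was 0.90 log2 (limma, adjusted p = 0.113).

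**Figure D3:**
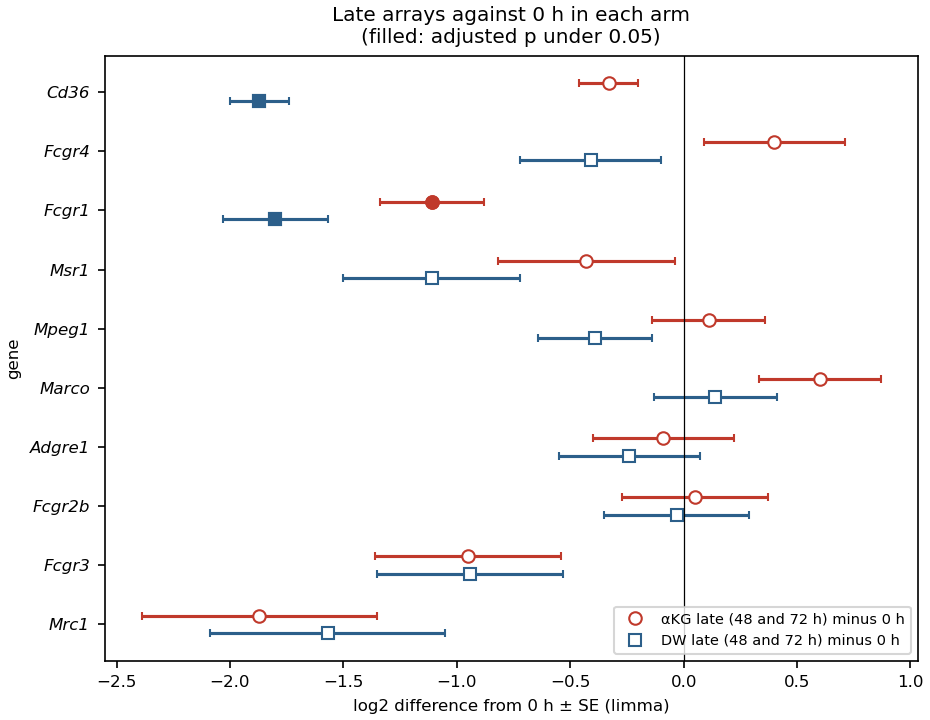
Late level minus 0 h level on the log2 scale (horizontal axis, mean of the 48 and 72 h arrays minus the mean of the 2 arrays at 0 h) for αKG (circles) and DW (squares), 1 pair of points per gene, with error bars of 1 standard error from the fit and filled symbols for differences past the threshold. Cd36 stood at -0.33 with αKG and -1.87 with DW, and Fcgr1 at -1.11 with αKG and -1.80 with DW.

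The 300-base promoter windows of the 3 activating Fc-gamma receptor genes and of Cd36 are shown because Cd36 differed most between the arms, and because the receptor genes hold a shared short motif close to the start site of the window. They come from RefSeq (GRCm38.p6) and run 5′ to 3′ on the gene's strand, from 250 bases before to 50 bases after a start site. They lie at chr3:96293920-96294219 (minus strand) for Fcgr1, chr1:171059354-171059653 (minus) for Fcgr3, chr1:171018676-171018975 (plus) for Fcgr4 and chr5:17835847-17836146 (minus) for Cd36. The windows of Fcgr3 and Cd36 lie at start sites inside these genes, whose 5′ ends are at 171065915 and 17888959. Those 5′ ends were not searched for the motif. Capitals mark GAGGAA or its reverse complement, the core of sites bound by the myeloid factor PU.1.
Fcgr1: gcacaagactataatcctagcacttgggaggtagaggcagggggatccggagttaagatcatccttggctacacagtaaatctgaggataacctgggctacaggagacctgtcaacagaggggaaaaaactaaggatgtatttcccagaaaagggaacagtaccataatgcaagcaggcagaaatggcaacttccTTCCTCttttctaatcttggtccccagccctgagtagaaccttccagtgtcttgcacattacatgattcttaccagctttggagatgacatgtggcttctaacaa
Fcgr3: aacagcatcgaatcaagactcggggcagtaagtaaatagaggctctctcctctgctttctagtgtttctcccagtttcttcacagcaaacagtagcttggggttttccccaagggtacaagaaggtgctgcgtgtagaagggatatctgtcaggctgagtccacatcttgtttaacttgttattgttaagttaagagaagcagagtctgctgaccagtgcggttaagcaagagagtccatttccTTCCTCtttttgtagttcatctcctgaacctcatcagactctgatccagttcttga
Fcgr4: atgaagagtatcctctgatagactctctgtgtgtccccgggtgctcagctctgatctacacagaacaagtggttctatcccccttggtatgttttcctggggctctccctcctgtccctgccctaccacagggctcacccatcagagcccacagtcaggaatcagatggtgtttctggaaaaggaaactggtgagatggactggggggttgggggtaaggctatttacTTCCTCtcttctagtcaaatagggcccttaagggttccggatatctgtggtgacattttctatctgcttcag
Cd36: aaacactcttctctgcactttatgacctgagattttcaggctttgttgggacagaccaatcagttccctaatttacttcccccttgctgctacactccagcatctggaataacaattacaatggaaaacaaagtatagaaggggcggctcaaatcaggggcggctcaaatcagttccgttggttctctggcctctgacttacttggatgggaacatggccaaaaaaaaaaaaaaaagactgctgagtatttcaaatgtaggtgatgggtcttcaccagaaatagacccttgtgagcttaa

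Of the 10 genes, 8 matched the RefSeq promoter table, with 9 windows since Fcgr3 has 2 that overlap; Msr1 and Adgre1 did not match. The GAGGAA core, searched on both strands, was found in 6 of the 9 windows, against 28.3% of all 32851 windows in the table. These windows belong to 5 of the 8 genes (Marco, Mrc1, Fcgr1, Fcgr3 and Fcgr4), and the 2 of Fcgr3 hold the same match. A share by gene was not computed for the whole table. In the windows printed above the core starts 55 bases before the window's start site for Fcgr1, 6 bases before it for Fcgr3 and 22 bases before it for Fcgr4, on the opposite strand in each. These matches describe letters in these windows and not binding.

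Fcgr1 codes for the high-affinity receptor CD64. With αKG it read 11.02, 10.87, 10.76, 10.51, 10.65, 10.98, 10.13 and 9.93 log2 at 0.5, 1, 3, 6, 12, 24, 48 and 72 h. The DW readings were 10.83, 11.10, 11.07, 10.45, 9.03 and 9.65 at 3, 6, 12, 24, 48 and 72 h, and the 0 h arrays read 11.14 and 11.13. The 4 late arrays were the lowest of the 16, with those of DW below those of αKG.

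Fcgr1 fell late in both arms. The difference from 0 h was -1.11 ± 0.23 log2 with αKG (2.16-fold lower, limma, adjusted p = 0.0437) and -1.80 ± 0.23 with DW (3.48-fold lower, limma, adjusted p = 0.00136). The αKG call was lost when any 1 of the 4 arrays was left out (adjusted p 0.106 to 0.309) and without the filter on dim genes, and the DW call was lost in a fit of the 2 groups alone (adjusted p = 0.0626). The late difference between the arms, 0.69 log2, did not pass (limma, adjusted p = 0.156). It was 1.10 at 48 h and 0.28 at 72 h, and was below 0 at 3, 6 and 12 h.

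Fcgr4, which binds IgG2a and IgG2b in the mouse, read 7.96, 7.76, 7.54, 7.45, 8.65, 8.58, 8.13 and 8.75 log2 with αKG at 0.5, 1, 3, 6, 12, 24, 48 and 72 h. In DW cultures it stood at 7.80, 8.15, 8.83, 7.88, 7.33 and 7.93 at 3, 6, 12, 24, 48 and 72 h, and the 0 h arrays read 7.93 and 8.14. Both late αKG arrays lay above the higher late DW array. Late Fcgr4 was 0.81 ± 0.19 log2 or 1.75-fold higher with αKG than with DW, at the edge of the threshold (limma, adjusted p = 0.049). The call was lost under 8 of 9 alternatives, among them leaving out either late pair, with adjusted p up to 0.514. The αKG minus DW difference was -0.26, -0.70 and -0.18 at 3, 6 and 12 h and 0.70, 0.79 and 0.82 at 24, 48 and 72 h, and its late minus early contrast of 1.29 did not pass (limma, adjusted p = 0.0714).

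Fcgr3, the low-affinity activating receptor CD16, read 10.73, 10.63, 10.44, 10.14, 10.05, 9.75, 9.12 and 9.94 log2 with αKG at 0.5, 1, 3, 6, 12, 24, 48 and 72 h. With DW the readings were 10.51, 10.14, 10.14, 9.51, 8.79 and 10.27 at 3, 6, 12, 24, 48 and 72 h, and the 0 h arrays read 10.50 and 10.45. Both arms were lowest at 48 h. Late values were -0.95 log2 from 0 h with αKG and -0.94 with DW, with adjusted p of 0.386 and 0.214 (limma), and the late difference between the arms was 0.00 ± 0.14.

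Fcgr2b, the inhibitory receptor, read 9.77, 9.98, 10.14, 10.13, 10.08, 9.31, 9.46 and 9.99 log2 with αKG at 0.5, 1, 3, 6, 12, 24, 48 and 72 h. In the DW arm it was 10.41, 10.36, 10.26, 9.45, 9.31 and 9.99 at 3, 6, 12, 24, 48 and 72 h, and the 0 h arrays read 9.66 and 9.70. All arrays from 3 to 12 h lay above both 0 h arrays, but the early differences of 0.46 with αKG and 0.71 with DW did not pass. The late difference between the arms was 0.07 log2 (limma, adjusted p = 0.696).

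Fcgr2b, Fcgr3 and Fcgr4 neighbour each other and are close relatives, so their features may share sequence. Neutrophils also carry Fc-gamma receptors, and 9 of the 10 neutrophil markers fell in the late phase of both arms, with list medians of -2.23 log2 with αKG and -2.43 with DW. Their part in the Fc receptor values was not tested. Late, the neutrophil marker Camp was 0.69 log2 higher with αKG than with DW, and it was the 1 of 10 that passed.

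Mpeg1, perforin-2, a pore-forming protein of phagocytes, read 10.98, 11.07, 11.04, 11.18, 11.63, 11.35, 10.86 and 11.44 log2 with αKG at 0.5, 1, 3, 6, 12, 24, 48 and 72 h. The DW arrays read 11.16, 11.30, 11.54, 11.19, 10.24 and 11.06 at 3, 6, 12, 24, 48 and 72 h, and the 0 h arrays read 10.99 and 11.08. The 48 h DW array stood below all others. Late Mpeg1 was 0.50 ± 0.07 log2 or 1.42-fold higher with αKG than with DW (limma, adjusted p = 0.00844), and the late difference exceeded the early one by 0.62 ± 0.10 (limma, adjusted p = 0.0433).

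The late Mpeg1 call was lost without the intensity trend (adjusted p = 0.0646) and without time as a block (adjusted p = 0.681). The contrast of phases was lost under 6 of 11 alternatives.

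Adgre1 read 10.97, 11.06, 11.11, 11.12, 11.37, 10.89, 10.57 and 11.29 log2 with αKG at 0.5, 1, 3, 6, 12, 24, 48 and 72 h. In DW cultures it read 11.26, 11.39, 11.45, 10.91, 10.29 and 11.26 at 3, 6, 12, 24, 48 and 72 h, and the 0 h arrays read 11.02 and 11.01. Both arms were lowest at 48 h. No comparison of Adgre1 passed, and its late difference between the arms was 0.15 log2 (limma, adjusted p = 0.322).

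No array after 0 h lacks RANKL, so in the comparisons with 0 h effects of RANKL, of longer culture and, in the αKG arm, of αKG cannot be told apart. With αKG, 0 members passed in the fast phase, where 0% of all genes did and 0 members had an unadjusted p under 0.05 (limma). Marco alone rose early with αKG, where 0.399% of genes were higher, and 0 members passed in the intermediate phase, where 0.67% of genes passed in either direction and 2 members had an unadjusted p under 0.05. Fcgr1 alone fell late with αKG, where 0.799% of genes were lower.

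With DW, Marco alone rose in the early phase, where 0.303% of genes were higher, and in the intermediate phase, where 0.451% were. Cd36 and Fcgr1 fell late with DW, where 3.3% of genes were lower. The median late difference from 0 h over the 10 members was -0.21 log2 with αKG and -0.67 with DW, against 0.00 for all genes in each.

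Between the arms, 0 members passed over the 6 times together, in the early phase or in the intermediate phase (limma), where 0.399%, 0.161% and 0.0966% of all genes passed in either direction. Unadjusted p was under 0.05 for 3, 4 and 2 members in these comparisons. In the late phase 4 members were higher with αKG (Cd36, Msr1, Mpeg1 and Fcgr4) and 0 lower, where 2.09% of genes were higher. The members' median late difference was 0.48 log2, against 0.01 for all genes, and 8 of 10 were above 0. The contrast of late minus early differences passed for Cd36 and Mpeg1, where 0.348% of genes passed in that direction, and its median was 0.63 over the members and 0.02 over all genes.

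Within the late phase the members moved in more than 1 way. By a fold rule chosen after the values were seen, Mrc1, Fcgr3, Fcgr4, Mpeg1 and Adgre1 were at least 1.5-fold higher at 72 h than at 48 h in both arms, as were 3.74% of all genes. Fcgr4 (1.54-fold with αKG, 1.51-fold with DW) and, with αKG, Mpeg1 (1.5-fold) lay close to the cutoff. Fcgr2b missed it with αKG (1.44-fold) and met it with DW (1.6-fold), so the count of members depends on the cutoff. Msr1 was at least 1.5-fold lower in both arms, as were 5.07% of genes. Mrc1 differed by 1.14 log2 with αKG and 0.70 with DW, Fcgr3 by 0.83 and 1.47, and Msr1 by -0.68 and -0.94. Cd36 differed by -0.02 with αKG and -0.44 with DW. These are single arrays per arm and time, and the step was not tested. The 48 h DW array was the lowest of the 16 for 5 genes (Fcgr1, Fcgr3, Fcgr4, Mpeg1 and Adgre1) and the 72 h DW array for Cd36 and Msr1.

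The genes whose log2 values followed each member most closely over the 16 arrays are given with Pearson's r as a description, since all points share the time course. For Cd36 they were Alox5ap (r = 0.955), which acts in leukotriene synthesis, Mctp1 (0.946) and Nucb2 (0.944). For Msr1 they were the inhibitory receptor Lair1 (0.963), the complement receptor C5ar1 (0.958) and the cholesterol hydroxylase Ch25h (0.956). For Mrc1 they were Capzb (0.976), Npl (0.973) and Igfbp4 (0.973), and for Marco Slco3a1 (0.946), Ifi205 (0.915) and Adam17 (0.912).

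Fcgr1 was followed most closely by the neutrophil collagenase gene Mmp8 (r = 0.939), by Hgsnat (0.92) and by Camp (0.912), Fcgr3 by Itpkb (0.957), Smagp (0.933) and Ltc4s (0.928), and Fcgr4 by Pld4 (0.885), Ifitm6 (0.881) and Sirpb1c (0.873). For Fcgr2b they were Slc49a4 (0.957), Ppp1r21 (0.95) and Jak1 (0.914). Mpeg1 was nearest to the lysosomal membrane gene Lamp1 (0.933), Sema4a (0.924) and Xdh (0.924), and Adgre1 to Ms4a14 (0.955), Adap2 (0.949) and Csf3r (0.939). Among the members themselves, r was 0.88 for Mrc1 with Fcgr3, 0.84 for Fcgr2b with Adgre1, 0.84 for Mpeg1 with Adgre1, 0.79 for Cd36 with Msr1 and -0.28 for Msr1 with Fcgr4.

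Genes of the same systems gave mixed counts. Late, 2.09% of all genes were higher and 2.18% lower with αKG than with DW. Of 16 other scavenger receptor genes, 4 were higher and 0 lower, with a median of 0.16 log2. They were Lrp1 (0.72 ± 0.12), a large endocytic receptor, Stab1 (0.38 ± 0.07), Colec12 (0.53 ± 0.11) and Cxcl16 (0.36 ± 0.08), a chemokine that also binds oxidised lipoprotein. In the early phase 1 of the 16 was lower with αKG than with DW, namely Cxcl16 (-0.57 ± 0.08), where 0.0644% of all genes were lower. Both arms then stood above 0 h for Cxcl16. It read 9.97 and 10.06 log2 with αKG and 10.43 and 10.73 with DW at 3 and 6 h, against 8.94 and 9.02 at 0 h. Cd163, the haemoglobin scavenger receptor, was below both 0 h arrays (6.34 log2 each) on every later array. It read 6.10 and 5.95 with αKG at 0.5 and 1 h, and 5.41 with αKG and 5.47 with DW at 3 h. Its difference from 0 h passed in the intermediate phase (-1.19 with αKG, -1.25 with DW) and in the late phase (-1.12 with αKG, -1.15 with DW), and missed the threshold in the early phase (-0.97 with αKG, -1.03 with DW). Against 0 h, Lrp1 and Stab1 fell late with DW, by 1.19 and 1.39.

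Of 13 genes of Fc receptor signalling, 0 were higher and 1 was lower with αKG than with DW late, with a median of 0.08 log2. That gene was Fcgrt, the neonatal Fc receptor of endosomes, at -0.97 ± 0.21. In the early phase 1 of the 13 was lower with αKG, namely the Src family kinase gene Fgr (-1.04 ± 0.14), and 0 were higher. Against 0 h, Fgr rose late, by 2.32 log2 with αKG and by 1.92 with DW. With DW, Fcer1g, the common gamma chain, Inpp5d, the inhibitory phosphatase SHIP1, and Vav1 fell late, by 0.50, 0.70 and 0.66 log2.

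Of 7 complement receptor genes, 3 were higher with αKG than with DW late (C5ar1 by 0.68 log2, C3ar1 by 0.67 and Itgam by 0.39) and 0 were lower. Of 12 genes for uptake of apoptotic cells, Trem2 (0.67) and the bridging protein gene Gas6 (0.42) were higher and Mfge8 (-0.90) was lower. Of 13 lipid handling genes, the lysosomal lipase Lipa (0.36) was higher and Acat1 (-0.44) lower. Of 9 macrophage transcription factor genes, Klf4 (0.78) was higher and Bhlhe40 (-1.11) lower. Bhlhe40 read 8.91 and 8.75 log2 late with αKG and 9.86 and 10.02 with DW, against 7.05 and 7.16 at 0 h. Among the 12 other macrophage markers, Cx3cr1 (1.13), Siglec1 (0.75) and Cd33 (0.75) were higher and Clec4a2 (-0.63) was lower. Clec4a2 read 7.13 and 7.69 late with αKG and 7.82 and 8.26 with DW, against 6.75 and 6.70 at 0 h.

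All 10 osteoclast markers were lower with αKG than with DW late, with a median of -2.0 log2. Their part in the members' values was not tested.

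**Figure D4:**
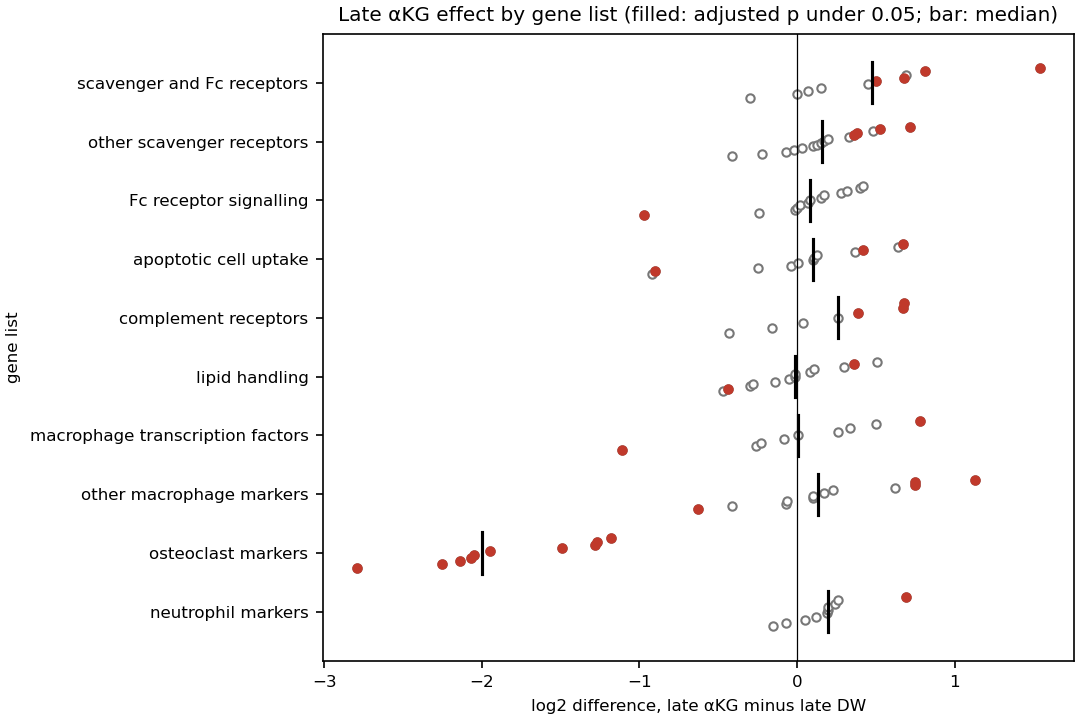
Late αKG minus late DW difference in log2 level (horizontal axis) for every tested gene of each list (down the side), with 1 point per gene, filled where past the threshold, and a bar at each list's median. The 10 receptor genes had a median of 0.48, complement receptors 0.26, other scavenger receptors 0.16, Fc receptor signalling genes 0.08 and osteoclast markers -2.0.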

How the data were processed

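Gene expression was measured on 16 one-colour arrays of biotin-labelled RNA, per the labels' protocols. The authors deposited log2 values (0.61 to 13.25, the base read from this range), with array medians of 4.84 to 4.93. How they were summarised, background-corrected and normalized, and on which build, is not given in the sources used here, so neither background nor saturation could be set, and precision is limited by the number of arrays. Every array column was matched to its sample by name, and 0 columns were left unused.

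Of 33793 features, 23521 had 1 gene symbol, 1814 several and 8458 are unnamed here. For the 1082 genes with several features, the one with the highest mean was kept. Gene IDs of 23328 features were in the GRCm38.p6 table. The 30% of genes with the lowest mean (4.34 log2 or less) were removed.

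Tests used limma 3.58.1 under R 4.3.3 (lmFit, eBayes with an intensity trend) and were checked on simulated data. P-values were adjusted by Benjamini-Hochberg over all 15526 genes, threshold 0.05. Each phase was set against 0 h in a fit of the 8 groups together, which leaves 8 residual degrees of freedom. The αKG arm was set against DW on the 12 arrays at the 6 shared times, with time as a block, as a single effect (5 residual degrees of freedom left) or per phase (3). Time comes from the labels. Deviations of arrays of the same time correlated at r = 0.50 to 0.75, and the best match of every array was the one of its own time. Alternatives changed the filter, normalization, eBayes setting, block, groups in the fit and arrays.

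The members and lists were chosen with earlier results of these data known. All members are named, and from each other list up to 4 genes with the smallest p past the threshold in a comparison. As most similar genes, the 3 with the highest Pearson correlation are named, without predicted genes and small RNAs. Some list genes were not analysed here.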

Additional observations from a re-analysis of the deposited data

Results flagged for a closer look

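The αKG minus DW difference of Cd36 was 1.33 log2 larger in the late than in the early phase (0.21 early, 1.54 late), and the contrast of the phases passed the test in limma (adjusted p = 0.0156).

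For Mpeg1 the same contrast was 0.62 log2 (-0.12 early, 0.50 late) and passed as well (limma, adjusted p = 0.0433). Both calls were lost without the intensity trend, without time as a block and when the 3 h or the 6 h pair was left out. Groups of 2 arrays are too small to look for arrays far from the rest of their group.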

How the results depend on the processing

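Of the 12 member differences that passed, none changed sign over 124 results under other settings, 86 stayed past the threshold and 38 did not. Cd36, late DW against 0 h and late αKG against DW, and no other of the 12, passed under every alternative run, with adjusted p up to 0.0396 and 0.00408. The number of members past the threshold changed by over 1.5 times as follows. With only the 2 groups compared in the fit, it was 2 for early DW, 0 for intermediate DW, 1 for late DW and 4 for early αKG against 0 h. With the lowest 50% left out, it was 2 for intermediate DW and 1 for intermediate αKG. With quantile normalization it was 2 for intermediate DW, and 1 for the contrast of late and early differences. Without a filter it was 0 for late αKG against 0 h, and 1 for the contrast. Without the intensity trend it was 2 for late αKG against DW and 0 for the contrast, and without time as a block 1 and 0.

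Leaving out 1 array in turn gave 0 throughout for early αKG, early DW and late αKG against 0 h, and 0 to 1 for intermediate DW, with 0 when either 0 h array was left out. Leaving out 1 pair gave 0 to 5 for the contrast, with 0 when the pair of 3 h or that of 6 h was dropped and 5 (Cd36, Msr1, Marco, Fcgr4 and Mpeg1) when that of 48 h was. With a pair or an array left out, the remaining array of a group is alone and is assumed to vary like the other groups, which alone give the spread. For late αKG against DW the members' count was then 4 either way, while calls over all genes were 1882 with the 48 h pair dropped and 326 with that of 72 h dropped, against 663 with both. Under that assumption Cd36, Msr1 and Mpeg1 passed either way and Fcgr4 neither way. The remaining member differed in sign. It was Marco without the 48 h pair (0.83 log2, higher with αKG) and Mrc1 without the 72 h pair (-0.53, lower with αKG). With a late pair left out, every late difference between the arms, that of Cd36, Msr1 and Mpeg1 included, rests on 1 array per arm. The cause of the changes in calls was not tested. Averaging several features per gene was not run, since each member has 1 feature. No limit by signal over background can be given, and 2 arrays per group, or 1 per arm and time, limit every comparison.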
